A study of Mus musculus with 6 samples.

Results

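B cell surface and identity genes are the genes whose products carry out antigen recognition on B lymphocytes, tune the signal inside the cell, and keep the cell a B cell. The 9 genes described here were chosen by name for their known roles in B cells: *Cd79a*, *Cd79b*, *Ms4a1*, *Cr2*, *Cd22*, *Fcer2a*, *Blk*, *Blnk*, and *Pax5*. They are 9 of the 46078 gene identifiers counted in each sample, and all 9 were among the 15554 genes tested.

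RNA sequencing was performed on 3 stroke infarcts and 3 contralateral cortices of wild type C57BL/6J male mice, to find how the transcriptome of the chronic infarct differs from that of the opposite hemisphere. Tissue was taken at 7 weeks after DH stroke, a model in which the distal middle cerebral artery is occluded and the mouse is exposed to hypoxia. Every sample is recorded with an age of 3 months. The depth on genes was 12146959, 12507336 and 13427057 counts for infarcts 1, 2 and 3, against 19933962, 16610299 and 11943570 for contralateral cortices 1, 2 and 3. Infarcts and contralateral cortices share their genotype, strain, sex, age and time after stroke, and mice were perfused with saline before dissection. The contralateral cortex belongs to a brain that also carries an infarct, so it is not uninjured tissue, and female mice and other times are not part of this comparison. The sample records do not state that the 3 samples of a region came from separate mice, so *p* values measure the spread between these samples.

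B lymphocytes recognize antigen with a membrane immunoglobulin that has almost no cytoplasmic part of its own, and the signal is passed on by the attached CD79A and CD79B chains. Src-family kinases phosphorylate the tails of these chains, adaptor proteins carry the signal onward, and coreceptors on the surface raise or lower it. Healthy brain tissue holds few B lymphocytes, whereas they can gather in an ischemic lesion weeks after the injury.

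All 9 genes were upregulated in infarcts, where upregulated means more than 2-fold higher with an adjusted *p* below 0.05 (quasi-likelihood test of edgeR, Benjamini-Hochberg method over all tested genes). Of all tested genes, 25.7% were upregulated by the same rule and 20.9% were downregulated. For all 9 genes, the 3 infarct values lay above the 3 contralateral values, which also held for 37.6% of tested genes. In bulk tissue, more B cells and more RNA of these genes per cell cannot be told apart. Only *Fcer2a* and *Blnk* exceeded the filter's minimum level in all contralateral libraries. The other 7 genes entered the test through their infarct libraries, a route by which most genes differ. Of 1602 tested genes that entered in that way, 85.3% were upregulated, compared with 19.2% of the 13684 genes above the minimum in all contralateral libraries.

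The median fitted log2 fold change of the 9 genes was 7.80, compared with 0.03 over all tested genes. Fitted values of genes with almost no contralateral counts depend on a small count that the model adds. With *Blk*, which had no contralateral count, set to its lower bound, the median was 6.51. It was 5.07 when *Cd79a*, *Cd79b*, and *Cd22* were also set to the lower ends of their counting intervals. Without infarct 1, the median of fitted values was 7.18. Summed over the 9 genes, expression was 397.3, 222.1 and 187.6 CPM (counts scaled to a common library size of 1e6, here with edgeR's TMM method) in infarcts 1, 2 and 3. The sums were 8.67, 7.29 and 6.74 CPM in contralateral cortices 1, 2 and 3, and *Blnk* provided most of them. Replacing TMM with library totals moved the median log2 fold change of all tested genes by 0.20, and all 9 genes were upregulated on either scale.

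**Figure D1:**
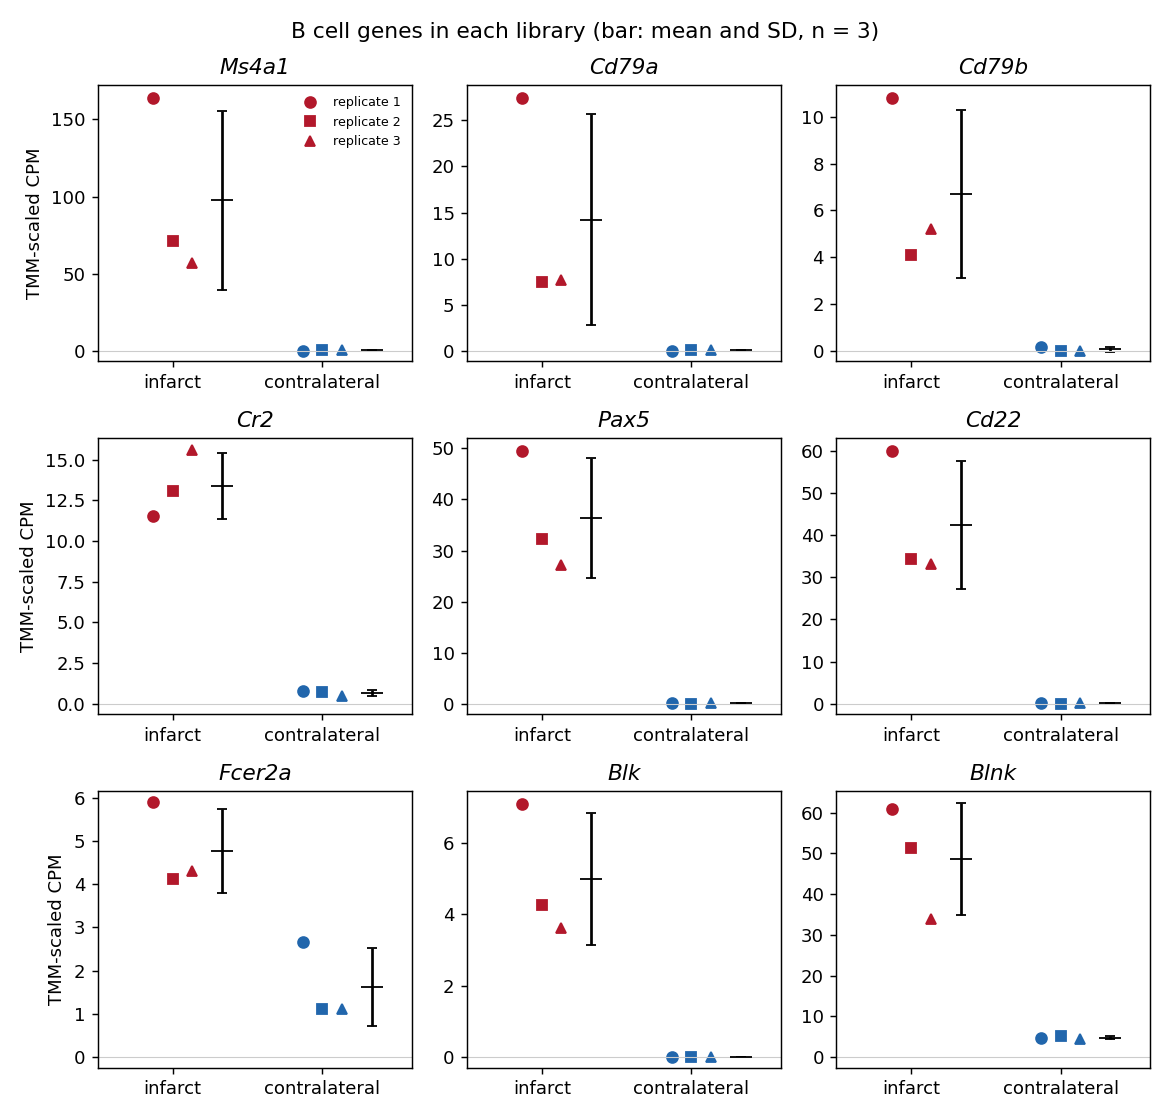
TMM-scaled CPM (linear axes) of each B cell gene in the 3 infarcts (red) and 3 contralateral cortices (blue), with 1 symbol per library and a bar for the mean and SD of each region. All infarct values lie above all contralateral values for each of the 9 genes, and infarct 1 is the highest library for 8 of them.

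*Cd79a* and *Cd79b* encode the signaling chains of the B cell receptor and lie on chromosomes 7 (24897381 to 24902197, GRCm38) and 11 (106311341 to 106314762). *Cd79a* measured 27.5, 7.49 and 7.71 CPM in infarcts 1, 2 and 3, from 345, 102 and 113 counts, and the contralateral libraries together held 2 counts. Infarct 1 stood apart from infarcts 2 and 3, which were close to each other. Pooled over libraries, the infarct-to-contralateral ratio of *Cd79a* CPM was 311.0, with a 95% counting interval from 85.7 to 2574. The fitted log2 fold change was 8.06 (SE 0.98, edgeR adjusted *p* = 1.97e-04). It was 7.18 without infarct 1 and 7.36 without contralateral cortex 1.

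*Cd79b* had 136, 56 and 76 counts in infarcts 1, 2 and 3, which is 10.8, 4.11 and 5.19 CPM, and 3, 0 and 0 counts in contralateral cortices 1, 2 and 3. Infarct 1 was again the highest, and no contralateral library came near the lowest infarct. The ratio of pooled CPM was 99.2 (95% counting interval 33.6 to 484.1). The fitted log2 fold change of *Cd79b* was 6.51 (SE 0.76, edgeR adjusted *p* = 5.51e-05), and 9.49 without contralateral cortex 1, which held all 3 contralateral counts. Per kilobase of exon sequence, the *Cd79a* level was 2.49, 1.79 and 1.46 times the *Cd79b* level in infarcts 1, 2 and 3. *Cd79a* was therefore the higher of the chains in all 3 infarcts on the per-length scale.

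*Ms4a1* (chromosome 19, 11249675 to 11266241) encodes CD20, a membrane protein of B cells from the late precursor to the memory stage that is lost in plasma cells. It had 2061, 968 and 838 counts in infarcts 1, 2 and 3, or 164.2, 71.1 and 57.2 CPM, and 0, 3 and 4 counts in contralateral cortices 1, 2 and 3. The regions were far apart, and infarct 1 exceeded the other infarcts. The ratio of pooled *Ms4a1* CPM was 613.5 (95% counting interval 297.5 to 1527). Its fitted log2 fold change was 9.20 (SE 0.78, edgeR adjusted *p* = 4.58e-05), 8.44 without contralateral cortex 1 and 9.99 without contralateral cortex 3. *Ms4a1* was the most abundant of the 9 genes by CPM, with 41.3% (95% Wilson interval 40.0 to 42.7) of their summed counts in infarct 1, 32.0% (30.4 to 33.7) in infarct 2 and 30.5% (28.8 to 32.2) in infarct 3.

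*Cr2* (chromosome 1, 195136811 to 195176716) encodes complement receptors 1 and 2, which bind antigen coated with complement fragments and lower the threshold of B cell activation. Follicular dendritic cells carry these receptors too. *Cr2* measured 11.6, 13.1 and 15.6 CPM in infarcts 1, 2 and 3, against 0.784, 0.716 and 0.461 CPM contralaterally. Among the 9 genes it was the only one whose lowest infarct value was in infarct 1, and its 3 infarct values spanned 1.35-fold. The log2 fold change of *Cr2* was 4.30 (SE 0.28, edgeR adjusted *p* = 1.25e-06).

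*Cd22* (chromosome 7, 30865402 to 30880342) encodes a sialic acid-binding receptor that recruits phosphatases and restrains the B cell receptor. Infarcts 1, 2 and 3 had 753, 467 and 485 *Cd22* counts, or 59.98, 34.3 and 33.1 CPM, and contralateral cortices 1, 2 and 3 had 2, 0 and 2 counts. Infarcts 2 and 3 were alike, infarct 1 was higher, and contralateral values were close to 0. The ratio of pooled CPM was 473.4 (95% counting interval 184.5 to 1739), and the fitted log2 fold change was 8.77 (SE 0.51, edgeR adjusted *p* = 8.89e-07). An antisense gene, *Gm29439*, shares 9.5% of the exon bases of *Cd22* on the opposite strand and had 0 counts in all 6 libraries.

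*Fcer2a* (chromosome 8, 3681737 to 3694175) encodes CD23, the low-affinity receptor for IgE, which marks mature follicular B cells. It measured 5.89, 4.11 and 4.30 CPM in infarcts 1, 2 and 3, against 2.66, 1.11 and 1.11 CPM contralaterally. The gap between the regions was narrow, since contralateral cortex 1, with 51 counts, stood above the other contralateral libraries, which had 17 and 12. The log2 fold change of *Fcer2a* was 1.51 (SE 0.40, edgeR adjusted *p* = 0.00742), the lowest of the 9 genes. It stayed between 1.28 and 2.09 when each library was left out in turn, with edgeR adjusted *p* values up to 0.035.

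*Blk* (chromosome 14, 63372836 to 63417037) encodes a Src-family kinase of B cells that acts directly below the receptor. It had 89, 58 and 53 counts in infarcts 1, 2 and 3, or 7.09, 4.26 and 3.62 CPM, and was the only one of the 9 genes with 0 counts in all 3 contralateral libraries. With 3 counts set as the floor in each contralateral library, *Blk* was at least 23.8-fold higher in infarcts (edgeR adjusted *p* = 4.24e-05).

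*Blnk* (chromosome 19, 40928927 to 40994535) encodes the adaptor that links the kinase SYK to phospholipase C and BTK, and it is also expressed in macrophages. It was the only one of the 9 genes with a steady contralateral signal, at 4.75, 5.14 and 4.34 CPM from 91, 79 and 47 counts. Its infarct values were 60.8, 51.3 and 33.8 CPM in infarcts 1, 2 and 3, and the lowest of these was still well above the contralateral values. The ratio of pooled *Blnk* CPM was 10.02 (95% counting interval 8.70 to 11.6). Of the summed contralateral counts of the 9 genes, *Blnk* held 217 and *Fcer2a* 80.

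*Pax5* (chromosome 4, 44524757 to 44710487) encodes the transcription factor that commits precursors to the B lineage and maintains that identity until plasma cell differentiation. It had 622, 440 and 398 counts in infarcts 1, 2 and 3, or 49.5, 32.3 and 27.2 CPM, and 4, 1 and 2 counts in contralateral cortices 1, 2 and 3. All infarcts were thus well above all contralateral cortices, with infarct 1 the highest. The ratio of pooled *Pax5* CPM was 231.6 (95% counting interval 112.1 to 577.1), and the fitted log2 fold change was 7.80 (SE 0.41, edgeR adjusted *p* = 3.79e-07). *Gm12462* and *5730488B01Rik* share 1.41% and 7.18% of the *Pax5* exon bases on the opposite strand, and neither had more than 8 counts in a library.

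Infarct 1 had the highest level of 8 of the 9 genes, whereas it was the highest infarct for 36.5% of all tested genes and 60.5% of upregulated genes. The ratio of its CPM to the pooled CPM of infarcts 2 and 3 was 3.61 for *Cd79a* (95% counting interval 3.04 to 4.30), 2.57 for *Ms4a1* (2.41 to 2.74) and 2.32 for *Cd79b* (1.81 to 2.97). It was 1.81 for *Blk* (1.35 to 2.41), 1.78 for *Cd22* (1.62 to 1.96), 1.67 for *Pax5* (1.504 to 1.86), 1.44 for *Blnk* (1.31 to 1.58) and 1.40 for *Fcer2a* (1.03 to 1.89). For *Cr2* the ratio was 0.804 (0.661 to 0.975). Thus the receptor chains and *Ms4a1* differed most between infarct 1 and the others, and *Cr2* went the other way. These intervals cover counting error only, and no test separates 1 tissue sample from 2. Across upregulated genes, the median ratio of infarct 1 to the mean of infarcts 2 and 3 was 1.18. With infarct 1 left out, all 9 genes remained upregulated, with *Ms4a1* at 64.1 and *Cd79a* at 7.60 CPM as means of the other infarcts.

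**Figure D2:**
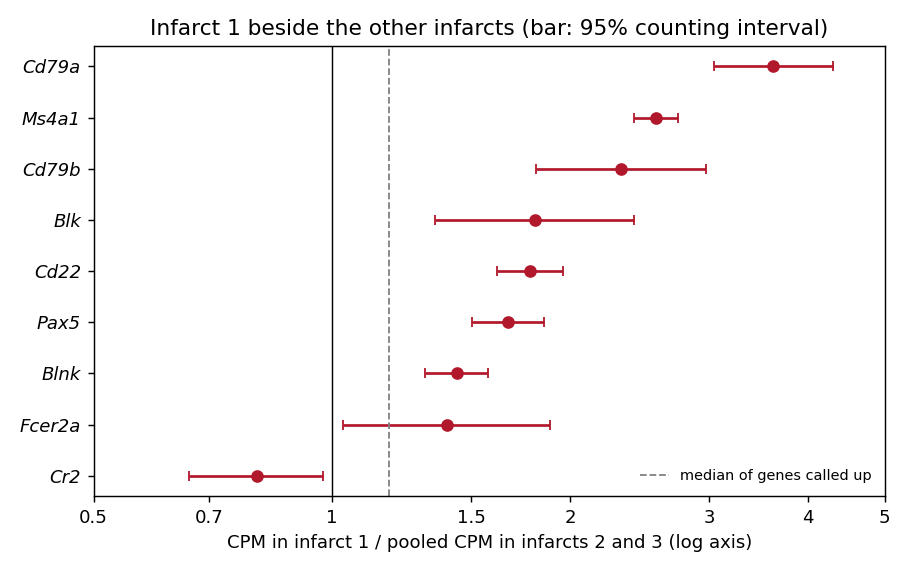
CPM in infarct 1 divided by pooled CPM in infarcts 2 and 3 for each B cell gene (log axis), with 95% counting intervals. A solid line marks a ratio of 1 and a dashed line the median of all upregulated genes (1.18). That median is of ratios of infarct 1 to the mean, not the pooled CPM, of infarcts 2 and 3. *Cd79a*, at 3.61, lies farthest to the right, and *Cr2*, at 0.804, is the only gene left of the solid line.

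On the per-length scale, the 9 genes spanned about an order of magnitude in infarcts. *Ms4a1* was the highest at 15.8 ± 9.40 CPM per kilobase of exon union (SD, n = 3), followed by *Cd79a* at 9.77 ± 7.88, *Cd22* at 8.42 ± 3.01 and *Blnk* at 8.12 ± 2.29. *Cd79b* was at 4.69 ± 2.52 and *Pax5* at 4.11 ± 1.32 CPM per kilobase. *Blk*, *Cr2*, and *Fcer2a* were the lowest, at 1.85 ± 0.685, 1.65 ± 0.250 and 1.54 ± 0.317 CPM per kilobase. Between neighbors in this order, the difference exceeded both SDs only from *Blnk* to *Cd79b* and from *Pax5* to *Blk*. These SDs include the high values of infarct 1. Within libraries, *Ms4a1* was above *Cd79a*, *Blnk* above *Cd79b* and *Pax5* above *Blk* in 3 of 3 infarcts, and the order of the other neighbors differed between infarcts. In contralateral cortices, *Blnk* was the highest at 0.792 ± 0.0673 CPM per kilobase, followed by *Fcer2a* at 0.526 ± 0.291, and the other 7 genes were below 0.1. The levels and their order depend on which exons are counted as length. Per kilobase of the longest transcript, *Ms4a1* was at 31.7 CPM, *Blnk* at 10.73, *Cd22* at 10.68 and *Cd79a* at 9.77, which placed *Cd79a* after *Cd22* and *Blnk*. On that scale *Cr2* was at 2.16, *Blk* at 2.15 and *Fcer2a* at 2.13 CPM per kilobase.

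**Figure D3:**
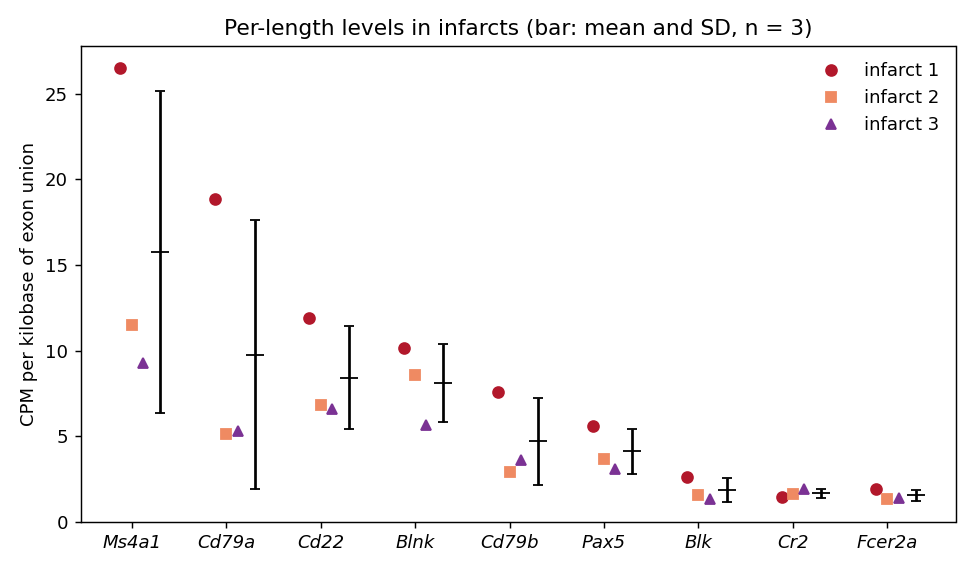
Level of each B cell gene in infarcts 1, 2 and 3 as TMM-scaled CPM per kilobase of exon union (linear axis from 0), with a bar for the mean and SD. *Ms4a1* has the highest mean (15.8), and the means of *Blk*, *Cr2* and *Fcer2a* lie between 1.54 and 1.85.

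The membrane immunoglobulin that pairs with CD79A and CD79B is encoded by heavy and light chain genes that plasma cells transcribe as well. All 6 surface immunoglobulin genes listed were upregulated, with a median log2 fold change of 7.79, which was 8.42 without contralateral cortex 1. *Ighd*, the heavy chain constant gene of IgD and a mark of mature B cells that have not switched class, had 527, 341 and 418 counts in infarcts 1, 2 and 3, against 6, 2 and 2 contralaterally. *Ighm*, the heavy chain constant gene of IgM, had 19500, 12165 and 1484 counts in the infarcts and between 131 and 171 in the contralateral libraries. In CPM, *Ighd* measured 41.98, 25.04 and 28.53 in infarcts 1, 2 and 3, so infarct 1 was the highest, while *Ighm* was much lower in infarct 3 than in infarcts 1 and 2. Of the combined counts of *Ighd* and *Ighm*, *Ighd* held 2.63% (95% Wilson interval 2.42 to 2.86), 2.73% (2.46 to 3.03) and 22.0% (20.2 to 23.9) in infarcts 1, 2 and 3. *Igkc*, the kappa light chain constant gene and the most abundant gene of the list, had 42767, 22027 and 9223 counts in infarcts 1, 2 and 3, against 8, 7 and 99 contralaterally. Contralateral cortex 3 stood apart, and the fitted log2 fold change of *Igkc* was 9.27 with it and 12.05 without it. It was 8.601 without infarct 1 and 8.66 without contralateral cortex 1. The lambda genes *Iglc1*, *Iglc2*, and *Iglc3* had at most 91 counts in a library. Since these lambda genes are similar in sequence, the split of reads among them is uncertain.

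Among 19 other B cell surface genes, 18 were upregulated and none was downregulated, with a median log2 fold change of 4.85. *Cd81*, a broadly expressed tetraspanin and the most abundant of them, measured 324.0 ± 26.2 CPM in infarcts (SD, n = 3) against 162.6 ± 10.02 CPM contralaterally. Its log2 fold change of 0.995 (edgeR adjusted *p* = 1.92e-04) missed the fold threshold, but was 1.20 with library totals and 1.07 without infarct 2, which passed it. *Ly86* and *Cd180*, whose products form a complex that tunes Toll-like receptor signals in B cells and macrophages, measured 202.8 and 181.6 CPM in infarcts and 13.8 and 6.28 CPM contralaterally. *Fcrla*, an intracellular Fc receptor-like protein of B cells, had 259, 143 and 102 counts in infarcts 1, 2 and 3 and 1 count in all contralateral libraries together. *Fcmr*, the receptor for IgM, had 144, 58 and 99 counts in infarcts, with none contralaterally, and was at least 35.8-fold higher. *Siglecg*, an inhibitory lectin related to *Cd22*, had 49, 87 and 68 counts in infarcts 1, 2 and 3 and 0 in contralateral cortices, and was at least 23.7-fold higher. *Siglecg*, *Fcmr*, and *Fcrl5* (39, 10 and 11 counts in infarcts 1, 2 and 3) resembled *Blk* in their lack of contralateral counts. Infarct 1 was the lowest infarct for *Siglecg* and the highest for *Fcmr* and *Fcrl5*. *Cxcr5*, the receptor for the follicle chemokine CXCL13, had 73, 51 and 49 counts in infarcts, against 8, 4 and 2 contralaterally. Of the 19 genes, 6 had at least 10 counts in each contralateral library.

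Of 13 B cell transcription factors besides *Pax5*, 10 were upregulated and 2 downregulated, and the median log2 fold change was 1.92. *Foxo1* and *Ikzf1*, which act in early B cell development and in other cells, measured 164.0 and 101.8 CPM in infarcts, against 43.4 and 6.86 CPM contralaterally. *Pou2af1*, a coactivator of octamer-binding factors in B cells, had 1200, 477 and 266 counts in infarcts 1, 2 and 3 and at most 2 in a contralateral library. *Ebf1*, which acts with *Pax5* in B lineage commitment and is also expressed in stromal cells, measured 32.7 CPM in infarcts against 8.76 CPM contralaterally. *Mef2c* and *Bcl11a*, which cortical neurons also express, were downregulated, with log2 fold changes of -3.04 (edgeR adjusted *p* = 8.16e-07) and -1.78 (edgeR adjusted *p* = 3.9e-04). *Bach2*, at 24.8 CPM in infarcts against 15.2 CPM contralaterally, did not reach the fold threshold. In this list, 9 of 13 genes had at least 10 counts in each contralateral library.

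Downstream of the receptor, 14 of 17 signaling genes were upregulated and 1 was downregulated, with a median log2 fold change of 3.12. *Lyn*, a kinase that phosphorylates the CD79 chains, measured 189.7 CPM in infarcts against 16.8 CPM contralaterally. *Syk*, the kinase recruited to those chains, measured 155.8 and 3.98 CPM, and *Btk*, which activates phospholipase C, 22.0 and 0.706 CPM. *Prkcb*, the most abundant gene of the list and one that neurons also express, was downregulated, with 285.9 CPM in infarcts against 1365 CPM contralaterally. *Grb2* (87.4 and 68.2 CPM) and *Fyn* (75.4 and 100.8 CPM) did not meet the thresholds. Of these 17 genes, 15 had at least 10 counts in each contralateral library, so most were not restricted to infarcts. Infarct means of *Lyn*, *Syk* and *Btk* were above that of *Cd79a* (14.2 CPM), and which cells supplied this RNA was not tested.

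All 6 inhibitors of B cell receptor signaling were upregulated, with a median log2 fold change of 4.56. *Fcgr2b*, the inhibitory receptor for IgG on B cells and macrophages, was the most abundant at 172.6 CPM in infarcts against 4.79 CPM contralaterally. *Ptpn6*, the phosphatase that CD22 recruits, measured 52.9 and 2.16 CPM, and which cells supplied this RNA was not tested. *Cd5*, carried by T cells and some B cells, had 40, 32 and 18 counts in infarcts and at most 2 in a contralateral library.

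Of 8 genes listed for germinal centers, where activated B cells mutate their receptors, 4 were tested and 3 were upregulated, with a median log2 fold change of 2.33. *Gcsam*, a germinal center signaling protein, had 54, 15 and 7 counts in infarcts 1, 2 and 3 and 0 in contralateral cortices. *S1pr2*, the most abundant gene of the list, *Bcl6*, and *Fas* were upregulated, and other cell types express them as well. *Mybl1* measured 9.22 CPM in infarcts against 11.7 CPM contralaterally. *Mef2b* had 0 counts in all libraries, and *Rgs13* at most 9. None of the 7 B cell precursor genes passed the filter on low counts. *Rag2*, *Vpreb1*, *Vpreb2*, and *Igll1* had 0 counts in all 6 libraries, *Rag1* had at most 14 in a library, *Dntt* at most 7 and *Vpreb3* at most 14.

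Of 12 genes for attraction and survival of B cells, 7 were tested and all 7 were upregulated, with a median log2 fold change of 2.82. *Cxcl13*, the ligand of CXCR5, had 1444, 704 and 481 counts in infarcts 1, 2 and 3, against 0, 3 and 3 contralaterally. Infarct 1 was the highest for *Cxcl13* as for *Ms4a1*. *Cxcl12* was the most abundant of the list, at 862.0 CPM in infarcts against 151.5 CPM contralaterally. *Tnfsf13b*, which encodes the survival factor BAFF, had 22, 23 and 26 counts in infarcts, against 4, 7 and 3 contralaterally, with no high value in infarct 1. *Ccl20* had 0 counts in all libraries.

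Markers of other cells also differed between regions, and their summed levels are given beside those of the B cell genes. The plasma cell list, of which 8 of 9 genes were tested and all 8 upregulated (median log2 fold change 4.32), summed to 2508, 1144 and 455.5 CPM in infarcts 1, 2 and 3. The T cell list, with 13 of 14 genes upregulated (median 5.66; without infarct 1, 12 upregulated and a median of 5.02), summed to 304.0, 135.8 and 91.3 CPM. In contralateral cortices these lists summed to 98.9 to 117.3 CPM and 9.14 to 9.96 CPM. *Jchain*, the joining chain of secreted IgM and IgA, led the plasma cell list, and *Cd28*, a costimulatory receptor, led the T cell list. *Cd2*, *Cd8a*, and *Trbc1* had 0 counts in contralateral cortices, and *Cd6* did not pass (edgeR adjusted *p* = 0.214). The level in infarct 1 was 3.14 times the mean of infarcts 2 and 3 for the plasma cell sum and 2.68 times for the T cell sum, compared with 1.94 times for the sum of the 9 B cell genes.

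The pan-leukocyte list, led by *Laptm5*, had all 5 genes upregulated (median log2 fold change 4.90) and summed to 1341, 894.7 and 800.1 CPM in infarcts 1, 2 and 3 and 68.4 to 85.7 CPM in contralateral cortices. The microglia and macrophage list, led by *Csf1r*, had 11 of 12 upregulated (median 2.92). It summed to 2697, 2274 and 2246 CPM in infarcts and 353.9 to 463.9 CPM in contralateral cortices, and *P2ry12* did not pass. The dendritic cell list, led by *Itgax*, had 5 of 8 upregulated (median 3.78), and summed to 496.8, 363.6 and 324.2 CPM in infarcts and 41.6 to 45.1 CPM in contralateral cortices. *Flt3*, *Zbtb46*, and *Siglech* did not pass. The fibroblast and leptomeninges list, led by *Col1a2*, had all 5 genes upregulated (median 6.45), with sums of 5786, 5257 and 4667 CPM in infarcts and 132.7 to 168.6 CPM in contralateral cortices.

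All 8 neuronal genes were downregulated (median log2 fold change -3.11). Their sums, led by *Syt1*, were 480.6, 659.7 and 1259 CPM in infarcts 1, 2 and 3 and 7234 to 8477 CPM in contralateral cortices. Infarct 1 thus had the lowest neuronal sum and the highest sum of the 9 B cell genes. Of 5 astrocyte genes, led by *Slc1a2*, 2 were upregulated and 1 was downregulated (median -0.38), with sums of 4515, 4835 and 6910 CPM in infarcts and 12720 to 13800 CPM in contralateral cortices. Of 5 red blood cell genes, 2 were tested and both were upregulated (median 2.64, and 1.89 without infarct 1). Their sums, led by *Hbb-bs*, were 30.2, 8.08 and 10.4 CPM in infarcts 1, 2 and 3, against 4.28, 0.846 and 3.14 CPM contralaterally. No red blood cell, neuronal, astrocyte or pan-leukocyte gene listed was at 0 in all contralateral libraries. The part of these cell types, of blood left in the tissue and of the share of tissue that was infarct in the levels of the B cell genes was not tested.

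The genes outside the 9 whose pattern over the 6 libraries was nearest to the mean profile of *Cd79a*, *Cd79b*, and *Ms4a1* were sought among 13215 genes. The distance was the root mean square difference between a gene's centered log2 CPM and that mean profile. The nearest was *H2-Eb2*, a class II histocompatibility gene, at 0.27, followed by *C6*, a complement component, at 0.29, *Slc15a3*, a lysosomal peptide transporter, at 0.31, *Pira2* at 0.31 and *Spib* at 0.31. *H2-Eb2* had 330, 183 and 149 counts in infarcts 1, 2 and 3 and 0 in contralateral cortices. *Spib*, a transcription factor of B cells and plasmacytoid dendritic cells, had 494, 183 and 181 counts in infarcts, against 0, 0 and 2 contralaterally. *Pira2* belongs to a family of similar genes, so reads may be split among its copies. Of the 3 reference genes, *Cd79a* was at 0.28 from the mean profile, *Cd79b* at 0.83 and *Ms4a1* at 0.99, so the profile was close to that of *Cd79a* and the nearest genes are not shown to be like *Cd79b* or *Ms4a1*. *Pax5* was at 0.46, *Cd22* at 0.67, *Blk* at 0.71, *Cr2* at 1.36, *Blnk* at 1.64 and *Fcer2a* at 2.52. *Fcer2a* was therefore the farthest of the 9 genes from the mean profile.

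Promoter sequences of the 9 genes were searched for short motifs as a description, without a test. RefSeq promoter windows of 300 bases on GRCm38.p6, from 250 before to 50 after a transcription start, were at hand for 6 of the 9 genes, in 8 windows, 3 of them for *Fcer2a*. There was no window for *Ms4a1*, *Cd79b*, and *Blk*. Both strands were searched for ATGCAAAT (the octamer), CCCNNGGG (core of the EBF1 site), GAGGAA (the core bound by PU.1) and CAGCTG (an E-box). Over all 32851 windows, 1.74% held ATGCAAAT, 13.7% held CCCNNGGG, 28.3% held GAGGAA and 16.3% held CAGCTG. Each motif was found in 1 of the 8 windows, and none in those of *Cr2* and *Pax5*. The *Blnk* window held the octamer, the rarest of these motifs, as its reverse complement at bases 121 to 128. The *Cd22* window held CCCNNGGG at bases 203 to 210, and the *Cd79a* window held GAGGAA as its reverse complement at bases 111 to 116. An E-box lay at bases 221 to 226 of the *Fcer2a* window at chr8:3690812-3691111. The windows of *Cd79a* (chr7:24897247-24897546, plus strand), *Cd22* (chr7:30878979-30879278, minus strand) and *Blnk* (chr19:40994172-40994471, minus strand) are shown 5′ to 3′ along the gene, with the matches in capitals, to place each match in its sequence. A match describes letters in a window, not a bound site. Only these exact letters were sought, so a window without a match is not shown to lack a site.
Cd79a: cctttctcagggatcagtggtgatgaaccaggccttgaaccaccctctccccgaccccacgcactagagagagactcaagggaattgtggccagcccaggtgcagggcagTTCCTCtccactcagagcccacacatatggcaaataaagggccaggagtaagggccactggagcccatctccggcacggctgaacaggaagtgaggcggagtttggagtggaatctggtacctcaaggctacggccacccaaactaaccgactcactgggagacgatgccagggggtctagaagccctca
Cd22: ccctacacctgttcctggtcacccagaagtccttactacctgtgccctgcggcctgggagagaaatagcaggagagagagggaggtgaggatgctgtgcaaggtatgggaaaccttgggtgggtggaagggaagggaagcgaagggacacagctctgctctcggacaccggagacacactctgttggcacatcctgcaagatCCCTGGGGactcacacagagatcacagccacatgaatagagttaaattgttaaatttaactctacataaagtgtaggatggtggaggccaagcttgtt
Blnk: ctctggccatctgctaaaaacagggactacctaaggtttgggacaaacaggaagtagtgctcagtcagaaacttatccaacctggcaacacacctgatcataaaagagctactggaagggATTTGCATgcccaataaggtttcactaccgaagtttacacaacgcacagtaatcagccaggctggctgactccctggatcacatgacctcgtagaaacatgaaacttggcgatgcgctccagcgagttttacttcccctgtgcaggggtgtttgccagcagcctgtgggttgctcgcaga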

How the data were processed

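Per the paper's methods and the submitters' processing notes, the authors prepared stranded mRNA libraries, demultiplexed paired reads with bcl2fastq 2.19, trimmed them with Trimmomatic 0.32, aligned them to GRCm38 with STAR 2.5.2b and counted them with htseq-count. The deposited values are whole-number counts per Ensembl gene, without normalization. The strand setting of the counting is not given in the sources used here. The 5 entries per library that name no gene, including reads aligning to several places, were left out, and 65.7% to 73.4% of the tallied reads of a library remained. Of 46078 identifiers, 45143 were found in GENCODE M21 on the reference chromosomes and 935 were not; the latter stayed in the tests.

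From the counts, genes were filtered with filterByExpr, scaled with TMM and tested between regions with edgeR 4.0.16 (quasi-likelihood, robust, region as the only term) in R 4.3.3. SEs are the fitted log2 fold change divided by the square root of its F statistic. Genes were called at an adjusted *p* of 0.05 and a log2 fold change of 1. Python 3.11.15 served for tables (pandas 2.3.3), intervals (SciPy 1.17.1) and plots (matplotlib 3.10.9). Replicate libraries of a region differed by more than sampling noise. Ratio intervals are exact binomial, share intervals are Wilson, and both, with the floor of 3 counts, cover counting error only, since PCR copies of a molecule cannot be recognized without molecular identifiers. Single values of 3 against 3 libraries were not tested by permutation, which cannot go below *p* = 0.1.

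The 9 genes were chosen by name for their roles in B cells, and both they and the 17 lists were chosen with earlier results of these data known. Named genes are the 9, list genes by infarct CPM with any that went against their list or did not pass, genes whose exons overlap the 9, and the 5 of nearest pattern (edgeR log2 CPM with a prior count of 2, at least 30 mean infarct counts). List genes further down that order (*Fcrla*, *Fcmr*, *Fcrl5*, *Siglecg*, *Cxcr5*, *Pou2af1*, *Ebf1*, *Btk*, *Ptpn6*, *Cd5*, *Gcsam*, *Cxcl13*, *Tnfsf13b*) were picked after their values were seen. Alternatives for single list genes were added after seeing the data. Some list genes enter the list counts but are not reported here singly. Alternatives were DESeq2 1.42.0, limma voom (limma 3.58.1), RLE size factors, library totals, no filter, at least 10 counts in 3 libraries, no fold change threshold, the replicate number as a block, each library left out, and thinning of all libraries to the smallest total.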

Additional observations from a re-analysis of the deposited data

How the results depend on the processing

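All 9 B cell genes were upregulated and none was downregulated under each of the 15 alternatives, and all 126 fitted log2 fold changes of these genes were positive. Their median log2 fold change was 7.13 with limma voom and ranged from 7.18 (without infarct 1) to 8.18 (without contralateral cortex 1) when each library was left out in turn; the cause was not tested. The summed contralateral level of the 9 genes fell from 7.57 to 2.82 CPM without *Blnk*. The B cell precursor list had 1 upregulated gene with DESeq2 and 1 with no filter, in place of 0; more genes are tested in these settings. Other list counts stayed within 1.5 times.

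The sample records do not say which samples share a mouse, and an infarct and a contralateral cortex may come from the same one. Correlations of deviations from the region mean between same-numbered samples were -0.19, 0.101 and 0.0011 for numbers 1, 2 and 3. Between differently numbered samples they ranged from -0.238 to 0.178. With 3 samples per region, these values can neither show nor exclude a pairing, and the numbers were not taken as one. With the replicate number as a block, 3945 genes were upregulated and 3222 downregulated, compared with 3999 and 3256 without the block, and all 9 B cell genes stayed upregulated.

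For 143 list and pattern genes, 1983 of 2001 values under the alternatives kept direction and call. Only genes that did not meet the thresholds changed direction: *Cd6* ranged from -0.082 to 1.37 with libraries left out, *P2ry12* was 0.005 with library totals, and *Siglech* was -0.002 with limma voom and between -0.088 and 0.193 with libraries left out. *Trbc2* lost its call in 6 settings, *Hbb-bs* in 1, and *Cd81* gained one in 5.

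Depth limits the low end. A contralateral level under 3 counts, or 0.157 to 0.277 CPM, cannot be told from 0 for *Blk*, and the fold changes of *Cd79a*, *Cd79b*, *Cd22*, *Ms4a1* and *Pax5* rest on 2 to 7 contralateral counts each.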
